A study of Mus musculus with 6 samples.

Results

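The STAT transcription factors *Stat2*, *Stat3*, *Stat4*, *Stat5a*, *Stat5b*, and *Stat6* were taken by gene symbol from a table of normalized counts and made up 6 of the 26264 genes listed there. Bulk RNA sequencing had been performed on hematopoietic stem cells (HSCs) of mouse bone marrow, sorted as lineage-Sca-1+c-Kit+CD150+CD48- cells, to compare WT mice with mice lacking interferon (IFN) regulatory factor 1 (IRF1). There were 3 libraries per genotype, each from a separate mouse. The replicates carried the numbers 2, 3, and 4 in their descriptions, which are used here, and were numbered differently in their titles. WT mice were C57Bl/6, whereas *Irf1-/-* mice were of the strain B6.129S2-Irf1 tm1Mak/J, and all were untreated females at 8 weeks of age. *Irf1-/-* mice lacked IRF1 in the whole body. Loss of IRF1 in HSCs, its loss in cells around them, and any other sequence carried over from 129S2 thus cannot be told apart. Between 43138521 and 59658080 reads per library lay on genes, and at least 3835 reads lay on each STAT gene in every library.

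STAT proteins wait in the cytoplasm until a cytokine brings its receptors and their Janus kinases (JAKs) together, are then phosphorylated on a tyrosine, pair up, and enter the nucleus to bind DNA. Proteins of the SOCS family, themselves often induced by STATs, switch the signal off. In HSCs, this route carries cytokine signals that maintain the cells, and IFNs use it to drive them out of quiescence.

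*Irf1*, the deleted gene, was at 10122, 11120, and 12058 normalized counts in WT replicates 2, 3, and 4 and at 9267, 9524, and 9287 in *Irf1-/-* replicates 2, 3, and 4. All 3 *Irf1-/-* libraries lay below all WT libraries, but a transcript was still counted at 84.3% of the WT mean (log2 fold change −0.24, adjusted *P* = 0.170, limma). A count per gene does not separate the deleted exons from the rest, so that these values do not check the genotype labels.

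Markers of the sorted cells were abundant in all 6 libraries, with *Kit* averaging 82379 normalized counts. *Cd48*, against which the cells were sorted, was at 257 to 431. The 10 genes of the HSC list, *Cd48* included, summed to 131705, 128617, and 126699 in WT and to 130254, 147469, and 133415 in *Irf1-/-* libraries. *Fgd5* was called higher (log2 fold change 0.83, adjusted *P* = 9.13e-05), where a call needed both a limma adjusted *P* below 0.05 and a log2 fold change beyond 0.58 in either direction. *Procr* (0.52, adjusted *P* = 0.0112) and *Ly6a* (−0.43, adjusted *P* = 0.0245), which encodes the sort marker Sca-1, had adjusted *P* values under 0.05 but smaller fold changes than a call needed. Over the leave-one-out fits, these adjusted *P* values were from 0.0149 to 0.0479 for *Procr* and from 0.0176 to 0.115 for *Ly6a*. Of the 10 genes, 1 was called higher, 4 were higher without overlap, and 1, *Ly6a*, was lower without overlap, against 0.96, 10.6, and 9.27% of all tested genes.

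Markers of other cell types were not uniformly absent. In the T and NK cell list, *Gzma* was at 0 in all libraries, and *Cd8a*, *Cd3e*, and *Cd3g* did not pass the filter. *Cd3d* was at 18.1 to 52.7 normalized counts, *Cd4* at 117 to 340, *Klrb1c* at 394 to 837, and *Nkg7* at 2174 to 3209. *Nkg7* was lower without overlap (log2 fold change −0.34, adjusted *P* = 0.0894, limma), as were 9.27% of all tested genes. The log2 fold changes of *Cd3d* (−0.36), *Cd4* (0.54), *Klrb1c* (0.28), and *Ncr1* (0.0089) differed in sign, and these genes overlapped between genotypes. In the B cell list, *Cd79b* averaged 2800 normalized counts and held 97.1% of the sum, while *Pax5* was at most at 18.3. In the erythroid list, the globin genes *Hba-a1* and *Hbb-bt* were at 0, and *Klf1*, which averaged 1044 normalized counts, was called lower (log2 fold change −0.72, adjusted *P* = 0.0361, from 0.0324 to 0.117 over the leave-one-out fits), a call lost when replicate 2 or 3 of either genotype was left out. In the dendritic cell list, *Flt3*, also a gene of multipotent progenitors, held 97.7% of the sum and was called higher (0.67, adjusted *P* = 0.0407, from 0.0145 to 0.127 over the leave-one-out fits), a call lost without any one of the *Irf1-/-* libraries or WT replicate 3. The other 4 genes of that list, at most at 69.9 normalized counts and each highest in WT replicate 4, had negative log2 fold changes with overlap. Of the 7 granulocyte and monocyte markers, *Lyz2* held 91.5% of the sum, and the other 6 summed to 1169, 2363, and 4378 normalized counts in WT and to 2241, 1938, and 3016 in *Irf1-/-* libraries. Among them, the neutrophil genes *S100a8* and *S100a9* reached 1033 and 1246 normalized counts in WT replicate 4 and no more than 110 and 131 elsewhere. That library also held the lowest value of *Stat2*, *Stat3*, *Stat4*, *Stat5b*, and *Stat6*, and without it the log2 fold changes of these 5 genes were 0.023, 0.17, 0.18, 0.058, and 0.063, all smaller than with all libraries. The 6 megakaryocyte markers, led by *Itga2b* with 58.7% of their sum, added up to 58848, 71525, and 56822 normalized counts in WT and to 51516, 33794, and 46280 in *Irf1-/-* libraries. Of the 6, 4 were lower without overlap, and *Pf4* (log2 fold change −1.11) and *Gp1bb* (−0.90) were called lower, against 9.27 and 0.954% of all tested genes. The 4 endothelial markers, of which *Tek* held 77.6% of the sum, added up to 10753, 10667, and 9736 normalized counts in WT and to 13055, 12883, and 13556 in *Irf1-/-* libraries. Of the 4, *Tek* (0.28, adjusted *P* = 0.110) and *Emcn* (0.58 and 0.0101, just under the fold for a call, and called in 4 of the 6 leave-one-out fits) were higher without overlap. Of all tested genes, 10.6% were higher without overlap. Whether these shifts of markers have a part in the STAT values was not tested.

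None of the 6 STAT genes was called different between genotypes with limma, edgeR, or DESeq2, while 0.96% of the 17404 tested genes were called higher and 0.954% were called lower in HSCs without IRF1. All 6 passed the filter of a mean normalized count of at least 10. An unadjusted limma *P* under 0.05 was found for 2 of the 6, *Stat3* and *Stat4*, both higher, against 8.38% of all tested genes that were higher and 8.07% that were lower by this measure. For 3 of the 6, *Stat3*, *Stat4*, and *Stat5b*, every *Irf1-/-* library lay above every WT library, and for none did every *Irf1-/-* library lie below. Of all tested genes, 10.6% were higher and 9.27% lower without overlap. The median log2 fold change was 0.10 over the 6 STAT genes and −0.0028 over all tested genes. The number of calls depended on single libraries: calls of higher genes went from 167 to 304 without WT replicate 4, to 104 without *Irf1-/-* replicate 2, to 83 without *Irf1-/-* replicate 4, and to 102 without WT replicate 3, and calls of lower genes went from 166 to 265 without WT replicate 4 and to 105 without WT replicate 3.

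*Stat2*, whose protein joins IRF9 in the complex that carries type I IFN signals to the nucleus, was at 5124, 4743, and 4126 normalized counts in WT and at 5110, 4938, and 4984 in *Irf1-/-* libraries. The genotypes overlapped, since WT replicate 2 held the highest value and WT replicate 4 the lowest. The spread was wider in WT (4664 ± 504, SD, n = 3) than in *Irf1-/-* libraries (5010 ± 88.9, SD, n = 3). The log2 fold change was 0.11 with a 95% interval from −0.10 to 0.31 (adjusted *P* = 0.658).

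*Stat3*, which carries the signals of the IL-6 family, granulocyte colony-stimulating factor (G-CSF), and IL-10, was at 22743, 23683, and 20116 normalized counts in WT and at 25137, 26087, and 27032 in *Irf1-/-* libraries. Every *Irf1-/-* library was above every WT library, and the gap between the nearest libraries was between WT replicate 3 and *Irf1-/-* replicate 2. Group means were 22181 ± 1849 and 26085 ± 948 (SD, n = 3 each). The log2 fold change was 0.24 with an SE of 0.090 and a 95% interval from 0.04 to 0.43, and it did not pass the threshold after adjustment (adjusted *P* = 0.191, limma). After quantile normalization it was 0.32 with an adjusted *P* of 0.0108, within a range of adjusted *P* from 0.0108 to 0.558 over 16 alternatives, and the fold change stayed below that required for a call. In bulk libraries, more cells with a transcript and more of it per cell cannot be told apart.

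*Stat4*, which acts downstream of IL-12 and type I IFN mainly in T and NK cells, was at 6567, 6655, and 6266 normalized counts in WT and at 6849, 8281, and 7386 in *Irf1-/-* libraries. The genotypes did not overlap, with WT values close together and *Irf1-/-* replicate 3 the highest. The log2 fold change was 0.20 with a 95% interval from 0.01 to 0.40 (adjusted *P* = 0.281). The T and NK cell markers summed to 3869, 3581, and 3798 normalized counts in WT and to 3148, 2902, and 3853 in *Irf1-/-* libraries, with *Nkg7* contributing 77.0% and 1 of the 9 markers at 0 throughout. Without *Nkg7* the sums were 659, 686, and 806 in WT and 759, 728, and 1231 in *Irf1-/-* libraries, and their part in the *Stat4* values was not tested.

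*Stat5a* and *Stat5b* encode closely similar proteins that act downstream of IL-3, GM-CSF, and growth hormone, and in HSCs they are known for maintaining quiescence. *Stat5a* was at 17296, 18856, and 15917 normalized counts in WT and at 15132, 16493, and 15414 in *Irf1-/-* libraries. It was the only STAT gene here with a negative log2 fold change (−0.14, 95% interval from −0.34 to 0.05, adjusted *P* = 0.485), and *Irf1-/-* replicate 3 lay above WT replicate 4, so that the genotypes overlapped. *Stat5b* was at 15518, 15668, and 14742 normalized counts in WT and at 16475, 16089, and 16122 in *Irf1-/-* libraries. Here every *Irf1-/-* library was above every WT library, although the log2 fold change was 0.08 (95% interval from −0.09 to 0.26, adjusted *P* = 0.684). Within each library, *Stat5b* held 47.3, 45.4, and 48.1% of the counts on both genes in WT and 52.1, 49.4, and 51.1% in *Irf1-/-* HSCs. The share was thus higher in all 3 *Irf1-/-* libraries, by 3.96 percentage points on average (46.9 ± 1.39% and 50.9 ± 1.39%, SD, n = 3 each, exact two-sided permutation *P* = 0.1, the smallest that 3 against 3 libraries can give). The sum of both genes overlapped between genotypes, at 32666 ± 1937 normalized counts in WT and 31908 ± 585 in *Irf1-/-* libraries (SD, n = 3 each, exact two-sided permutation *P* = 0.6). Since the genes are near-identical over long stretches, the way shared reads were counted could move reads between them, and their separate values are uncertain to that extent.

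*Stat6*, which carries IL-4 and IL-13 signals, was at 13571, 12993, and 12452 normalized counts in WT and at 13616, 15235, and 12873 in *Irf1-/-* libraries. The genotypes overlapped, and *Irf1-/-* replicate 3 stood above the other 5 libraries. The log2 fold change was 0.09 with a 95% interval from −0.10 to 0.29 (adjusted *P* = 0.685), and leaving out *Irf1-/-* replicate 3 or 4 gave 0.027 or 0.15, respectively. *Stat6* overlaps *Nab2* in the RefSeq annotation, which averaged 2112 normalized counts, and *Stat2* overlaps *Apof* at 22.1. *Stat3* also overlaps *Gm46295*, *Stat4* overlaps *Gm3940* and *Gm31812*, and *Stat6* overlaps *Gm30989*, for which no counts are given here. Without a stated strand setting, reads on such overlaps cannot be assigned with certainty.

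Levels were compared between genes as normalized counts per kb of the longest transcript. In WT HSCs, *Stat5a* was highest at 4464 ± 378 per kb (SD, n = 3), followed by *Stat3* at 3671 ± 306, *Stat6* at 3445 ± 148, *Stat5b* at 2937 ± 95.4, *Stat4* at 2179 ± 68.3, and *Stat2* at 1059 ± 114. *Stat3* and *Stat6* did not differ beyond their spread, as their WT libraries overlapped, and the other neighbors in this order had separate ranges. *Stat4* was present at 2.06 times the level of *Stat2* per kb. In *Irf1-/-* HSCs, *Stat3* took the first place at 4317 ± 157 per kb and *Stat5a* the next at 4033 ± 185, with overlapping ranges, and the other 4 genes kept their places. The upper part of the order also depended on the length used. Per kb of the median transcript, *Stat6* came first in WT at 9742, ahead of *Stat3* at 5960 and *Stat5a* at 4815. However, the median transcript of *Stat6*, at 1335 bases, was shorter than its longest coding sequence of 2514 bases, so that its first place is uncertain. With coding lengths, WT levels were 9590 for *Stat3*, 7250 for *Stat5a*, 6484 for *Stat5b*, and 5173 for *Stat6* per kb, while *Stat4* (2891) and *Stat2* (1681) stayed last.

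The shape of each gene over the 6 libraries was compared by the root mean square (RMS) difference of log2 values centered on their mean. Among the STAT genes, *Stat2* and *Stat5b* were most alike (RMS difference 0.07) and *Stat3* and *Stat5a* least alike (0.20). Of all tested genes, the nearest to *Stat3* were *B4galnt1* (0.025) and *1700017B05Rik* (0.028), and the nearest to *Stat4* were *Selplg* (0.024), encoding the P-selectin ligand, and *Aplp2* (0.028). *Stat5a* lay nearest to *Slc30a7* (0.012) and the splicing factor gene *Sf1* (0.013), and *Stat5b* to *Flcn* (0.016) and *Ttc5* (0.016). *Stat2* lay nearest to *Hectd3* (0.020) and *Mapk8ip3* (0.025), and *Stat6* to *Otud1* (0.011) and *Mansc1* (0.012). With 17404 genes to choose from and only 6 libraries, such close neighbors are a description of these libraries.

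In the RefSeq gene order, *Stat5b*, *Stat5a*, and *Stat3* follow each other on chromosome 11, which also holds *Irf1*, with 1548 listed genes between *Irf1* and *Stat5b*. The 3 neighbors did not share a direction, *Stat5a* having a negative and *Stat3* and *Stat5b* a positive log2 fold change. *Stat2* and *Stat6* lie on chromosome 10 and *Stat4* on chromosome 1.

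The rest of the JAK-STAT pathway was described with 15 lists holding 124 genes, of which 110 were tested. Of these 110, 7 were called higher and 6 lower, where 0.96 and 0.954% of all tested genes were. Without overlap between genotypes, 28 were higher and 13 lower, where 10.6 and 9.27% of all tested genes were. The median log2 fold change was 0.06. A further 2 genes with a positive (*Csf3r* and *Il4ra*) and 2 with a negative log2 fold change (*Nmi* and *Rsad2*) had an adjusted *P* under 0.05 but a smaller fold change than a call required. By adjusted *P* alone, 1.73% of all tested genes were higher and 1.49% lower. All 13 calls were lost when limma was fitted without an intensity trend, where the adjusted *P* values of these genes were between 0.0679 and 0.317 and only 7 genes of the whole table were called higher and 33 lower.

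None of the 4 JAK genes was called by limma, edgeR, or DESeq2, and 1 had an unadjusted *P* under 0.05. Of all tested genes, 8.38% were higher and 8.07% lower by this measure. *Jak1*, the kinase shared by IFN and IL-6 family receptors and the most counted of the 4, was at 32373, 34601, and 32283 normalized counts in WT and at 34702, 39818, and 36958 in *Irf1-/-* libraries. These values did not overlap, but the log2 fold change of 0.17 had an adjusted *P* of 0.400, and of 0.0143 after quantile normalization (log2 fold change 0.27). The gene with the low unadjusted *P* was *Jak3*, named after its values were seen, which pairs with the common gamma chain and was 0.29 higher on the log2 scale (adjusted *P* = 0.0916).

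None of the 5 IFN receptor genes was called by the 3 tools, and 3 had an unadjusted *P* under 0.05, all of them higher (*Ifngr1* and, named after their values were seen, *Ifnar1* and *Ifngr2*), as were 8.38% of all tested genes by this measure. *Ifngr1*, the ligand-binding chain of the IFN-γ receptor, was at 8514, 9046, and 8173 normalized counts in WT and at 10164, 10574, and 10197 in *Irf1-/-* libraries. The groups were well apart (8578 ± 440 and 10312 ± 228, SD, n = 3 each), and the log2 fold change of 0.27 had an adjusted *P* of 0.104.

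Among 11 receptors that signal mainly through STAT3, *Il10ra*, the ligand-binding chain of the IL-10 receptor, rose. It was at 290, 158, and 179 normalized counts in WT and at 677, 624, and 548 in *Irf1-/-* libraries, and its log2 fold change was 1.60 with an SE of 0.23 (adjusted *P* = 0.00155). All *Irf1-/-* libraries were above the WT libraries, and the call was kept when any single library was left out. The G-CSF receptor gene *Csf3r*, named after its values were seen, was at 6448, 5676, and 4915 normalized counts in WT and at 7755, 8841, and 8329 in *Irf1-/-* libraries and had a log2 fold change of 0.56, just under that required (adjusted *P* = 0.0102). *Il11ra1*, the most counted gene of the list, overlapped between genotypes with a log2 fold change of 0.12.

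The largest change of the pathway was that of *Il12rb1*, encoding the receptor chain shared by IL-12, which signals mainly through STAT4, and IL-23. It was at 1389, 1084, and 1376 normalized counts in WT and at 262, 162, and 328 in *Irf1-/-* libraries. It thus fell by 2.40 on the log2 scale (SE 0.22, adjusted *P* = 2.94e-05), and the call was kept when any single library was left out. The partner chain of the IL-12 receptor, *Il12rb2*, was at 754, 982, and 821 in WT and at 729, 855, and 754 in *Irf1-/-* libraries. These values overlapped (log2 fold change −0.12, adjusted *P* = 0.758). *Il23r* did not pass the filter, with at most 10.4 normalized counts in a library.

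Of 12 receptors that signal mainly through STAT5, 10 were tested and 2 were called, both higher, where 0.96% of all tested genes were. *Csf2rb*, the signaling chain shared by the receptors of IL-3, IL-5, and GM-CSF, was at 1908, 1501, and 2231 normalized counts in WT and at 3112, 2738, and 4020 in *Irf1-/-* libraries (log2 fold change 0.81, adjusted *P* = 0.0114). Without *Irf1-/-* replicate 4 its log2 fold change was 0.65 and its adjusted *P* 0.0535, within 0.00546 to 0.0535 over the 6 leave-one-out fits. Its near-identical neighbor *Csf2rb2*, an IL-3 receptor chain, was at 489, 312, and 500 in WT and at 918, 602, and 778 in *Irf1-/-* libraries (log2 fold change 0.83, adjusted *P* = 0.0457). That call was lost after quantile normalization (adjusted *P* = 0.0556) and without *Irf1-/-* replicate 2 (log2 fold change 0.69), *Irf1-/-* replicate 4 (0.81), WT replicate 2 (0.93), or WT replicate 3 (0.61), with adjusted *P* from 0.0270 to 0.204 over the leave-one-out fits. Reads shared by this pair may have been counted for either gene, so that the separate values are uncertain. *Il2rg*, the common gamma chain and the most counted gene of this list, was at 9048, 8273, and 8641 normalized counts in WT and at 9564, 11428, and 9489 in *Irf1-/-* libraries. The genotypes did not overlap, but the log2 fold change of 0.23 did not pass the threshold (adjusted *P* = 0.236).

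Neither of the 2 receptor genes that signal mainly through STAT6 was called by the 3 tools. *Il4ra*, the IL-4 receptor chain that binds STAT6, was at 4868, 5267, and 4970 normalized counts in WT and at 6677, 6612, and 6182 in *Irf1-/-* libraries. The genotypes did not overlap and the adjusted *P* was 0.0318, but the log2 fold change of 0.37 was under that required for a call. The adjusted *P* was 0.238 without the trend and 0.0376 to 0.151 over the leave-one-out fits, under 0.05 only without WT replicate 4.

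Of 18 cytokine genes, 11 were tested and 1 was called lower, where 0.954% of all tested genes were. *Il7*, which encodes a lymphoid growth factor, was at 312, 355, and 238 normalized counts in WT and at 154, 180, and 87.2 in *Irf1-/-* libraries and fell by 1.14 on the log2 scale (adjusted *P* = 0.0473). The call was lost with edgeR (adjusted *P* = 0.0579), without the filter (0.0631), and without *Irf1-/-* replicate 2 (log2 fold change −1.24), *Irf1-/-* replicate 4 (−0.84), WT replicate 2 (−1.11), or WT replicate 3 (−1.02), with adjusted *P* from 0.0299 to 0.196 over the leave-one-out fits. *Il12a* was the most counted cytokine gene, at 1749, 2434, and 1408 normalized counts in WT and at 2106, 1918, and 2004 in *Irf1-/-* libraries. It overlapped between genotypes, and its log2 fold change of 0.14 turned to −0.039 without WT replicate 4.

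Among the 8 genes of the SOCS family, *Socs3*, the inhibitor of IL-6 and G-CSF receptor signaling, rose. It was at 694, 568, and 892 normalized counts in WT and at 1562, 1724, and 1541 in *Irf1-/-* libraries (log2 fold change 1.19, SE 0.15, adjusted *P* = 0.000737). The genotypes were well apart, and the call was kept when any single library was left out. *Cish*, known as a STAT5 target and the most counted SOCS family gene, was at 5287, 5138, and 6286 normalized counts in WT and at 9731, 6753, and 7065 in *Irf1-/-* libraries. All *Irf1-/-* values were above the WT values, with a log2 fold change of 0.48 and an adjusted *P* of 0.0622. These values moved with single libraries, to 0.32 and 0.219 without *Irf1-/-* replicate 2, the highest library, 0.57 and 0.0265 without WT replicate 4, and 0.58 and 0.0443 without *Irf1-/-* replicate 3. The list was not of a single direction, as *Cish*, *Socs2*, *Socs3*, and *Socs5* were higher and *Socs1* and *Socs4* lower without overlap, 4 and 2 of the 8 genes, against 10.6 and 9.27% of all tested genes.

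None of 12 other inhibitors, such as phosphatases and PIAS proteins, was called by the 3 tools, and 1 had an unadjusted *P* under 0.05, the adaptor gene *Sh2b3* (log2 fold change 0.35), named after its values were seen. The most counted, the phosphatase gene *Ptpn6*, was at 26637 ± 1504 normalized counts in WT and 27938 ± 1833 in *Irf1-/-* libraries (SD, n = 3 each). None of 7 partners and import factors was called either, with 2 at an unadjusted *P* under 0.05, 1 higher and 1 lower. By this measure, 8.38% of all tested genes were higher and 8.07% lower. *Irf9*, the DNA-binding partner of STAT2, was at 9476, 8993, and 8691 normalized counts in WT and at 11350, 11535, and 10458 in *Irf1-/-* libraries. These values did not overlap (log2 fold change 0.30, adjusted *P* = 0.0765). *Nmi*, an IFN-inducible protein that binds STATs and the other gene of low unadjusted *P*, was named after its values were seen, at −0.53 on the log2 scale (adjusted *P* = 0.0455, from 0.0111 to 0.185 over the leave-one-out fits).

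Of 18 genes known as targets of STAT2 and IRF9, 4 were called lower and none higher by limma, edgeR, or DESeq2, 14 had a negative and 4 a positive log2 fold change, and the median was −0.23. Of all tested genes, 0.954% were called lower, and 8776 had a negative and 8628 a positive log2 fold change. *Ifit3*, an IFN-induced antiviral gene, was at 490, 476, and 576 normalized counts in WT and at 152, 187, and 91.4 in *Irf1-/-* libraries and fell by 1.89 on the log2 scale (adjusted *P* = 0.00103). *Oas3*, an enzyme that activates the antiviral nuclease RNase L, was at 2801, 2535, and 2481 in WT and at 951, 1339, and 910 in *Irf1-/-* libraries and fell by 1.31 (adjusted *P* = 0.000124). Both were lower in every *Irf1-/-* library by a wide margin. *Ifit2* was at 3621, 3779, and 3742 in WT and at 2496, 2151, and 2279 in *Irf1-/-* libraries and fell by 0.69 (adjusted *P* = 0.00111). *Mx1* was at 179, 197, and 258 in WT and at 67.2, 118, and 85.1 in *Irf1-/-* libraries and fell by 1.24 (adjusted *P* = 0.0368). The call of *Mx1* was lost without the filter (adjusted *P* = 0.0562) and without *Irf1-/-* replicate 2 (log2 fold change −1.05), *Irf1-/-* replicate 4 (−1.22), WT replicate 2 (−1.35), WT replicate 3 (−1.28), or WT replicate 4 (−1.09), with adjusted *P* from 0.0291 to 0.130 over the leave-one-out fits. In contrast, *Ddx58*, the most counted target and a sensor of viral RNA, was at 6341, 5704, and 5502 in WT and at 5532, 6072, and 5086 in *Irf1-/-* libraries, with overlap. *Rsad2*, named after its values were seen, had an adjusted *P* of 0.0391, from 0.0301 to 0.185 over the leave-one-out fits, at a log2 fold change of −0.47.

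Of 7 genes known as STAT3 targets, 2 were called higher, all 7 had a positive log2 fold change, and the median was 0.35, where 0.96% of all tested genes were called higher and 8628 of 17404 had a positive log2 fold change. *Bcl3*, a nuclear partner of NF-κB, was at 1822, 1757, and 1610 normalized counts in WT and at 2484, 3419, and 3208 in *Irf1-/-* libraries (log2 fold change 0.80, adjusted *P* = 0.00251). *Cebpd*, a transcription factor of the myeloid lineage, was at 202, 180, and 231 in WT and at 403, 462, and 398 in *Irf1-/-* libraries (log2 fold change 1.04, adjusted *P* = 0.0105). Both calls were kept when any single library was left out. *Socs3*, also called higher, was counted with the SOCS family, whose genes are often induced by STATs, and not in this list. *Myc*, the most counted of these targets, overlapped between genotypes at 25735 ± 4600 and 26814 ± 1858 normalized counts (SD, n = 3 each). The tally of positive values depended on single libraries. With a library left out, the log2 fold change reached −0.061 for *Myc* and −0.0064 for *Fos*, the latter named after its values were seen.

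Of 4 genes known as STAT4 targets, 3 were tested and *Il18rap*, a chain of the IL-18 receptor, rose. It was at 908, 633, and 999 normalized counts in WT and at 1889, 1360, and 1498 in *Irf1-/-* libraries (log2 fold change 0.91, adjusted *P* = 0.0103). Without *Irf1-/-* replicate 2 its log2 fold change was 0.78 and its adjusted *P* 0.0659, within 0.00649 to 0.0659 over the leave-one-out fits. *Il18r1*, the other chain of that receptor, named after its values were seen, had the largest log2 fold change of the list at 1.09 and did not overlap between genotypes. It was called with DESeq2 but not with limma (adjusted *P* = 0.0682, from 0.00786 to 0.237 over the leave-one-out fits). *Furin*, the most counted of the 4, overlapped between genotypes (log2 fold change 0.24, adjusted *P* = 0.346). None of the 5 listed STAT5 targets and none of the 5 tested of 8 STAT6 targets was called by the 3 tools or had an unadjusted *P* under 0.05. The most counted were *Ccnd2*, encoding a G1 cyclin, at 21525 ± 784 and 21071 ± 1967 normalized counts, and *Gata3* at 1950 ± 254 and 1892 ± 287 (WT and *Irf1-/-*, SD, n = 3 each). *Cish*, also known as a STAT5 target, was counted in the SOCS list instead. It was higher without overlap (log2 fold change 0.48, adjusted *P* = 0.0622 with limma and 0.00577 with DESeq2).

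RefSeq promoters of build GRCm38.p6, from 250 bases before to 50 bases after a start, were found for all 6 STAT genes and 95 of the 124 pathway genes. They were searched on both strands for the STAT motif TTCNNNGAA and for an IRF motif of GAAA repeated after any 2 bases. Of 32851 promoters, 8.30% held the STAT motif and 3.44% the IRF motif. The STAT motif was in none of the 9 promoters of the STAT genes. The IRF motif was in the promoter of *Stat2*, beginning 222 bases before the start, and in 1 of 2 promoters of *Stat4*, beginning 97 bases before the start. It was in 9 of the 14 STAT2 and IRF9 targets that had a promoter, among them *Ifit3* and *Oas3*, which fell, but not in the 2 promoters of *Ifit2*, which fell as well. Of these 14 targets, 2 of the 3 called lower and 7 of the 11 not called held it. It was also in the promoter of *Ifit1*, which averaged 2350 normalized counts in WT and 2046 without IRF1 (log2 fold change −0.21, adjusted *P* = 0.497) and was chosen for comparison after its values were seen. Parts of these promoters are shown 5′ to 3′ on the strand of the gene, with the IRF motif or its reverse complement in capitals, to set the STAT genes that hold it beside targets that were and were not called. A match describes letters and not binding.
*Stat2*, chr10:128270261-128270300, plus strand: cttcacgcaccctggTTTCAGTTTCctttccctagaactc
*Stat4*, chr1:52008128-52008167, plus strand: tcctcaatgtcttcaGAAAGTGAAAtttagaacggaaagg
*Ifit1*, chr19:34640770-34640828, plus strand: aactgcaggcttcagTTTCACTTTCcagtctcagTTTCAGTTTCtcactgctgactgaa
*Ifit3*, chr19:34583358-34583431, plus strand: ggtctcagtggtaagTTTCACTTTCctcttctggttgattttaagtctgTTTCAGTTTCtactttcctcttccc
*Oas3*, chr5:120777710-120777749, minus strand: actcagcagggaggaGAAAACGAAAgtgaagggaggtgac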

How the data were processed

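Per the file headers, the authors deposited a signal made from Htseq counts per gene. According to the submitters' processing notes and the study's methods, reads were trimmed with Trim Galore, aligned to mm39 with HISAT2, counted per gene, and scaled by DESeq2 size factors, with versions and strand setting not given in the sources used here. Whole reads were recovered for 100% of values (tolerance 0.1 reads). Genes averaging at least 10 normalized counts were compared with limma 3.58.1 (R 4.3.3, intensity trend) on log2(normalized count + 1), where the pseudocount of 1 understates changes of low genes, and *P* values were adjusted over all 17404 tested genes by Benjamini-Hochberg. Added tests on recovered reads called 165 higher and 162 lower genes with edgeR 4.0.16 and 295 and 209 with DESeq2 1.42.0. The code was tested on simulated data. Transcript lengths came from GENCODE vM1 and gene order and promoters from RefSeq GRCm38.p6, by symbol. Intervals are 95% intervals of the fit. Genes named by rule were the STAT genes, *Irf1*, every called pathway gene, the gene with the highest mean of each list, and the 2 genes nearest to each STAT gene. Other named genes, such as *Il23r*, *Socs1*, *Socs2*, *Socs4*, and *Socs5*, did not follow from this rule. Some listed genes are not reported here and were left out of the list counts. The members and lists were chosen with earlier results of these data known.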

Additional observations from a re-analysis of the deposited data

How the results depend on the processing

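The 6 STAT genes kept their sign under 16 alternatives each, including quantile normalization, median centring, edgeR with TMM, and DESeq2. Adjusted *P* passed 0.05 only for *Stat3* after quantile normalization (log2 fold change 0.32), and none was called. Single libraries moved some of these values by over 1.5 times. The log2 fold change of *Stat2* was 0.023 or 0.18 with WT replicate 4 or 2 left out, that of *Stat4* was 0.13 without *Irf1-/-* replicate 3, that of *Stat5a* was −0.083 without WT replicate 3, and that of *Stat6* was 0.027 or 0.15 with *Irf1-/-* replicate 3 or 4 left out. Calls of higher genes were 295 with DESeq2, 301 by adjusted *P* alone, 7 without the trend, and 83 to 304 with a library left out. Calls of lower genes were 260 by adjusted *P* alone, 33 without the trend, and 105 to 265 with a library left out. No pathway gene was called without the trend (0 higher and 0 lower). The cause was not tested. The higher share of *Stat5b* kept its sign in all alternatives, at 3.19 to 4.70 percentage points with a library left out. Signs turned for uncalled genes with a library left out, over ranges of −0.039 to 0.36 for *Il12a*, −0.061 to 0.20 for *Myc*, −0.092 to 0.042 for *Ccnd2*, and −0.15 to 0.071 for *Gata3*, and *Ccnd2* was at 0.037 after quantile normalization. WT levels per kb of the median transcript were 5960 for *Stat3*, 2303 for *Stat4*, and 9742 for *Stat6*, whose median transcript of 1335 bases was shorter than its longest coding sequence of 2514 bases. Per kb of coding length, an alternative chosen after seeing the data, they were 1681 for *Stat2*, 9590 for *Stat3*, 2891 for *Stat4*, 7250 for *Stat5a*, 6484 for *Stat5b*, and 5173 for *Stat6*.

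Whether the shared replicate numbers pair the samples cannot be settled with 3 libraries per genotype. Deviations from the group means correlated at −0.094, 0.246, and 0.147 for numbers 2, 3, and 4. Pairs of unlike numbers ranged from −0.326 to 0.251, and WT replicate 4 correlated best with *Irf1-/-* replicate 2 (0.251). With the number as a block, 219 genes were called higher and 196 lower, with 8 and 6 pathway genes, and *Stat3* had an adjusted *P* of 0.0821. Genes with a limma adjusted *P* under 0.05 numbered 561 without the block and 1075 with it. The *Stat5b* share under the block differed by 3.96 percentage points (exact sign-flip *P* = 0.25, the smallest possible). The block took *Ifngr1* (adjusted *P* = 0.0395), *Cish* (0.0342), and *Irf9* (0.0262) past 0.05. Without a block, DESeq2 did so too (0.0293, 0.00577, and 0.0148, in that order), as did quantile normalization for *Ifngr1* (0.0126), *Irf9* (0.0163), and *Jak1* (0.0143).

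With 3 libraries per genotype, the 95% intervals of the STAT genes reached at most 0.43 in the positive and −0.34 in the negative direction on the log2 scale. Of the pathway genes, 14 were too low to be tested. No molecular identifiers are stated, so reads are not independent molecules.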
